A study of Mus musculus with 4 samples.

Results

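Neurotrophic factors and axon guidance genes encode the ligands and receptors through which tissues support growing nerve fibres and steer them. The members were the neurotrophins, the glial cell line-derived neurotrophic factor (GDNF) family, the semaphorins with their neuropilin and plexin receptors, the netrins, the slits and the ephrins, each taken from a written list by its gene symbol. All 42 listed genes were found among the 17630 genes of each library. Neurotrophins act through Trk receptors and the shared receptor Ngfr, while GDNF family ligands bind a GFRα co-receptor that signals through Ret. Semaphorins, netrins, slits and ephrins attract or repel growing axons, and the same families direct cell adhesion, migration and branching in epithelia. In the mammary gland, netrin 1 with neogenin, and slits with Robo1, are known for their part in the structure and branching of the ducts.

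RNA-seq was analysed from wild-type (WT) mouse mammary basal cells, the contractile cells on the outside of the duct, in a study of sympathetic nerves and mammary stem cell activity. Cells sorted from untreated mice (sorted control) were compared with cells sorted from mice given 6-hydroxydopamine (6-OHDA), a toxin taken up by noradrenergic nerve endings, which it destroys. Colonies grown from basal cells in Matrigel without agonist (control colonies) were compared with colonies grown with salbutamol, a β2 adrenergic agonist, and phenylephrine, an α1 agonist (SP colonies). Each of the 4 conditions was 1 library. The number in the label of the SP library is 200 and in that of its control 0, with no unit. The labels give no strain, sex or age. The study's methods name C57BL/6 and Actin-DsRed mice, and Balb/c-nude mice as transplant recipients, without tying the RNA-seq to a strain. They also name female donors and a sort that removes cells bearing CD31, CD45 or TER119. The culture medium held epidermal growth factor, insulin, transferrin and selenium. The number of animals behind a library was not given in the sources used here. Toxin injected under the skin reaches noradrenergic endings throughout the body, so the 6-OHDA library is no model of nerve loss in the mammary gland alone.

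With 1 library per condition there was no spread between replicates, no test was made, and every difference is one between 2 libraries. The deposited values were FPKM (fragments counted relative to transcript length and to the fragments of the library). Differences were taken on log2(FPKM + 1), which understates those of low genes, for genes whose FPKM averaged 1 or more in the pair compared. A gene was said to have risen or fallen when its log2 difference was over 0.3 in size. FPKM values summed to 508071 in the sorted control, 517504 in the 6-OHDA library, 577631 in colonies without SP and 588202 in colonies with SP. From the steps between low values, 1 FPKM on 1 kilobase stood for roughly 15.0 to 18.9 fragments, so that 0.59 FPKM of Gfra2 rested on about 11 to 34 fragments. Of the members, 41 reached 1 FPKM in each sorted library, 35 did so in colonies without SP and 32 in colonies with SP.

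The basal label was checked against marker lists of 10 cell types. All 11 basal markers were at 1 FPKM or more in every library, with sums of 10500 FPKM in the sorted control, 9510 in the 6-OHDA library, 6890 in colonies without SP and 14800 in colonies with SP. Krt14 was the most abundant of them in each, at 3595, 2633, 3298 and 6920 FPKM in that order. The contractile marker Myh11 stood at 467 and 449 FPKM in the sorted libraries and at 11.2 and 21.4 in the colonies. The 10 luminal markers, led by Krt8, summed to 1080, 967, 1570 and 1520 FPKM. Basal markers were thus present in all 4 libraries together with luminal ones.

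The 9 endothelial markers summed to 324 and 323 FPKM in the sorted libraries and to 12.3 and 3.38 in the colonies. Pecam1, which encodes the CD31 used to remove endothelial cells, led them with 107 and 93.0 FPKM in the sorted libraries and 1.39 and 1.56 in the colonies, while Erg led in the control colonies with 10.3. The endothelial markers Cldn5 and Tie1 were listed at 0 in the SP colonies. The 9 fibroblast markers summed to 187 FPKM in the sorted control, 385 in the 6-OHDA library, 45.0 in colonies without SP and 27.9 in colonies with SP, where Pi16 was at 0. Dcn led the sorted libraries with 115 and 135 FPKM, and Col1a2 with 20.6 and Fbln1 with 15.1 led the control and SP colonies. The 8 Schwann cell markers summed to 82.8, 97.9, 24.6 and 17.5 FPKM, with Sox10 at 50.6 and 61.9 FPKM leading in the sorted libraries and Mbp at 12.9 and 8.67 in the colonies. Foxd3 was at 0 in the SP colonies, and Sox10 is also known from mammary epithelium.

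The 6 pericyte markers summed to 44.5, 53.6, 24.7 and 18.8 FPKM, led by Rgs5 at 19.2 and 27.0 in the sorted libraries and by Notch3 at 22.5 and 17.3 in the colonies, where Kcnj8 was at 0. The 8 leukocyte markers summed to 12.2, 10.8, 3.26 and 3.72 FPKM, led throughout by Cd68, which stood at 6.05 in the sorted control. Ptprc, which encodes CD45, was at 0.77 and 0.47 FPKM in the sorted libraries and at 0 in both colony libraries. Cd3e was at 0 outside the sorted control, and Itgam and Csf1r were at 0 in the control colonies. Only Fabp4 exceeded 2 FPKM among the 5 adipocyte markers, which summed to 211, 375, 38.0 and 1.13 FPKM. Cidec was at 0 in the 6-OHDA library and the SP colonies, and Plin1 in the latter.

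Of the 9 neuron markers 6 were analysed here, and they summed to 4.11, 4.27, 9.27 and 50.8 FPKM. Th, the enzyme by which the study labelled sympathetic nerve fibres, was at 0, 0.04, 0 and 0 FPKM. Its RNA was thus at or near 0 in every library. Tubb3 led in the sorted control with 1.94 FPKM and in the SP colonies with 26.7, and Stmn2 led in the 6-OHDA library with 2.46 and in the control colonies with 8.36. Snap25 was at 0 outside the sorted control, and Elavl3 and Syt1 were at 0 in the SP colonies. Salivary gland markers, 8 of 9 analysed here, summed to 1.7 FPKM in the sorted control, 15400 in the 6-OHDA library, 1.36 in colonies without SP and 1.13 in colonies with SP. Bpifa2 led in the 6-OHDA library with 7277 FPKM, and Amy1 at 1.3 and 1.06 and Lpo at 0.61 led in the sorted control, the control colonies and the SP colonies. These transcripts made up 2.97% of the summed FPKM of the 6-OHDA library. In the sorted control Bpifa2, Smr3a, Dcpp1, BC037156, Prb1 and Smgc were at 0, in the 6-OHDA library Smgc alone, in the control colonies Smr3a, Dcpp1, BC037156, Prb1 and Smgc, and in the SP colonies Bpifa2, Smr3a, Dcpp1, BC037156 and Prb1.

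**Figure D1:**
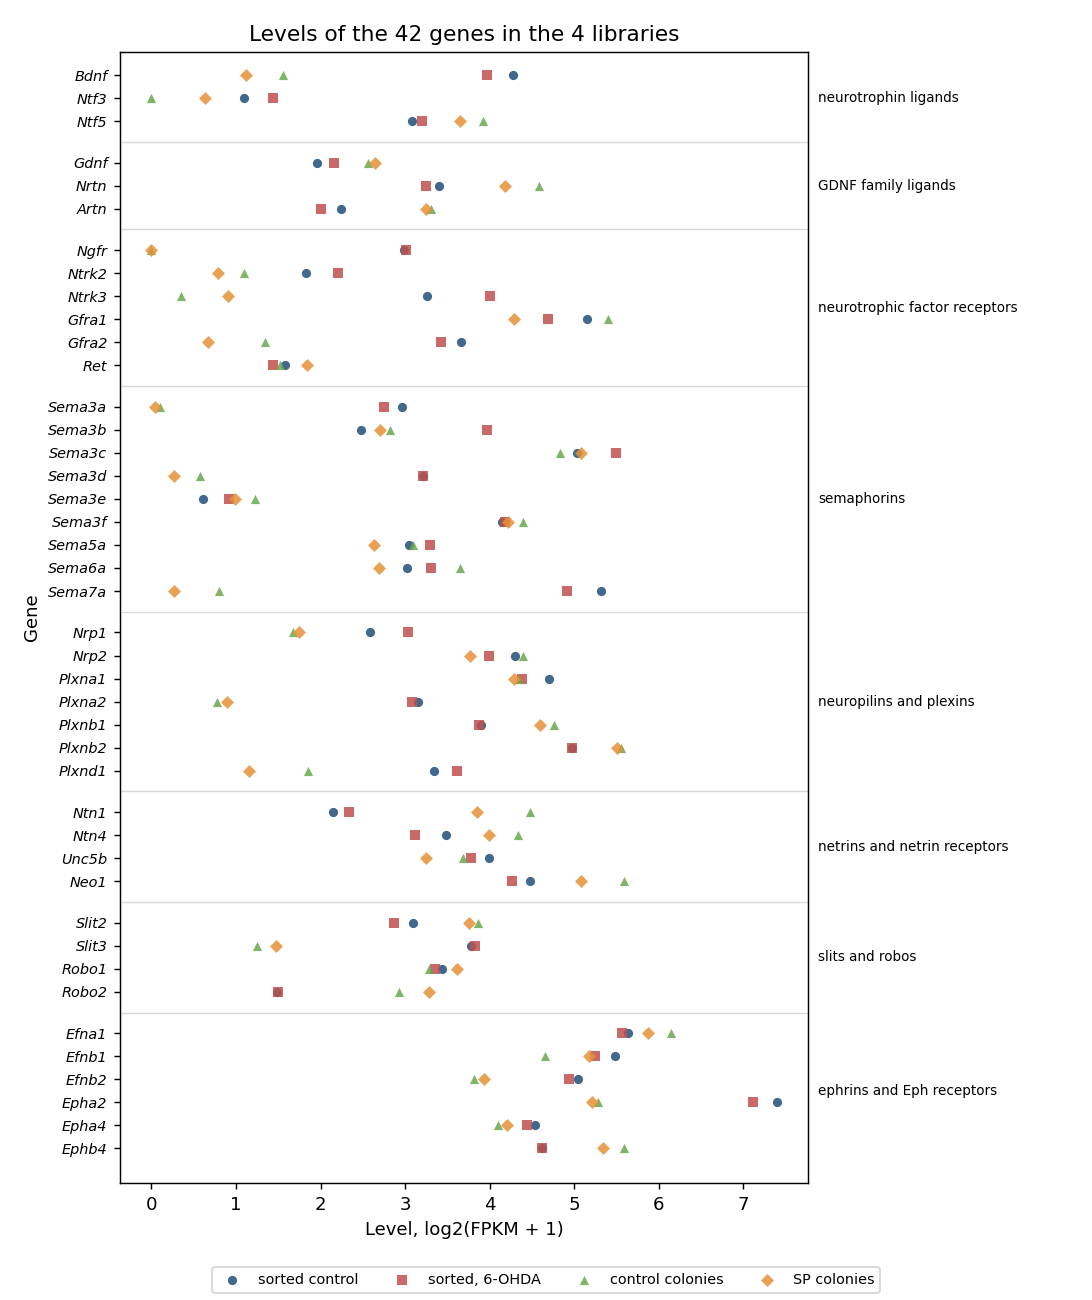
Level of each of the 42 genes on the log2(FPKM + 1) scale in the 4 libraries, 1 point per library, grouped by role. Epha2 is the highest in the sorted control at 167 FPKM, and Ngfr lies at 0 in both colony libraries.

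The comparison of sorted cells asked how loss of sympathetic nerve endings goes with the expression of guidance genes in basal cells. In the 6-OHDA library Sema3b, a secreted semaphorin, stood at 14.7 FPKM against 4.56 in the control, a log2 difference of 1.49. Ntrk3, the receptor of neurotrophin-3, rose from 8.59 to 15.1 FPKM, while Gfra1, the co-receptor of GDNF, fell from 34.5 to 24.8 FPKM. Of 41 members compared, 6 rose (14.6%), where 15.8% of all genes compared did so. The 6 that fell made up the same 14.6% of members, against 8.35% of all genes. The members' median log2 difference was -0.07 and that of all genes 0.06.

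Among all genes past the threshold, 65.4% were higher in the 6-OHDA library, a share of 50.5% after scaling by the median ratio and 47.4% after quantile normalization. The member counts were then 6 higher and 9 lower, and 4 higher and 10 lower. With FPKM rescaled to the same sum without salivary gland genes, 7 members were higher and 4 lower. The rises of Ntrk3, Sema3b and Sema3c and the falls of Gfra1 and Sema7a were past the threshold under every alternative on the pseudocount, the filter and the scaling, with the threshold held at 0.3. Those of Ntf3, Ntrk2, Nrp1, Bdnf, Nrp2, Plxna1 and Ntn4 each ended with a pseudocount of 5. Quantile normalization also ended those of Ntf3 and Ntrk2, and leaving out the salivary gland genes those of Bdnf and Nrp2. Bdnf at -0.304 and Nrp2 at -0.312 were the members just past the threshold on the log2 scale, and Sema6a at 0.286 and Epha2 at -0.285 lay just within it. Sema3e, with 0.53 and 0.89 FPKM in these libraries, was not compared.

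Fibroblast markers moved with this comparison. Of 9 compared, 6 rose and 0 fell, among them Col1a1, from 14.0 to 55.4 FPKM, and Col3a1, from 18.3 to 91.7. Schwann cell markers had 1 of 4 higher and endothelial markers 2 of 9. Of the others compared, 1 of 6 pericyte, 1 of 1 adipocyte and 7 of 7 salivary gland markers rose, with 0 falling, while 1 of 2 neuron markers rose and 1 fell. Of 11 basal markers 1 rose and 2 fell, of 9 luminal ones 1 rose and 3 fell, and of 3 leukocyte ones 0 rose and 1 fell. In bulk samples such as these, fewer cells of a type and less RNA per cell cannot be told apart. The part of these cells in the differences of the members was not tested.

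The colony comparison asked what adrenergic agonists do to the same genes in cultured basal cells. The largest fall in size was that of Gfra1, from 41.0 FPKM in control colonies to 18.5 in SP colonies, a log2 difference of -1.11. Sema6a, a transmembrane semaphorin, fell from 11.5 to 5.44 FPKM, and all 4 netrins and netrin receptors fell as deposited, although Ntn4 was within the threshold after scaling by the median ratio. Efnb1, a transmembrane ephrin, rose from 24.3 to 35.0 FPKM. Of 34 members compared, 12 fell (35.3%), against 19.8% of all genes compared, and 4 rose (11.8%), against 11.7% of all genes. The members' median log2 difference was -0.17 and that of all genes -0.07.

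Higher values made up 37.1% of all genes past the threshold in this comparison, and 49.9% after scaling by the median ratio, when 5 members were higher and 11 lower. The rise of Efnb1 and the falls of Nrtn, Gfra1, Sema6a, Nrp2, Ntn1, Unc5b and Neo1 held under every alternative on the pseudocount, the filter and the scaling. A pseudocount of 5 ended the calls of Bdnf, Gfra2, Ret, Sema5a, Plxnd1, Ntn4, Robo1 and Robo2, and that of Ntn4 also ended with median-ratio scaling and with quantile normalization. Ret at 0.319 and Robo1 at 0.326 were just past the threshold on the log2 scale, and Ntf5 and Efna1, both at -0.268, lay just within it. The 8 members not compared, all with a mean under 1 FPKM, were Ntf3, Ngfr, Ntrk2, Ntrk3, Sema3a, Sema3d, Sema7a and Plxna2. Gfra2 and Sema3e were compared with 1 library under 1 FPKM.

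Markers of other cells were mostly low in both colony libraries. Of those compared, 1 of 6 fibroblast markers rose and 4 fell, 2 of 2 pericyte, 1 of 2 endothelial, 2 of 3 Schwann cell and 1 of 1 adipocyte markers fell, and 2 of 2 neuron markers rose. The 1 leukocyte marker compared was within the threshold, and 0 salivary gland markers were compared. Of 11 basal markers 7 rose and 1 fell, with a median log2 difference of 0.84, and of 10 luminal ones 0 rose and 5 fell. How far these shifts bear on the members was not tested.

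**Figure D2:**
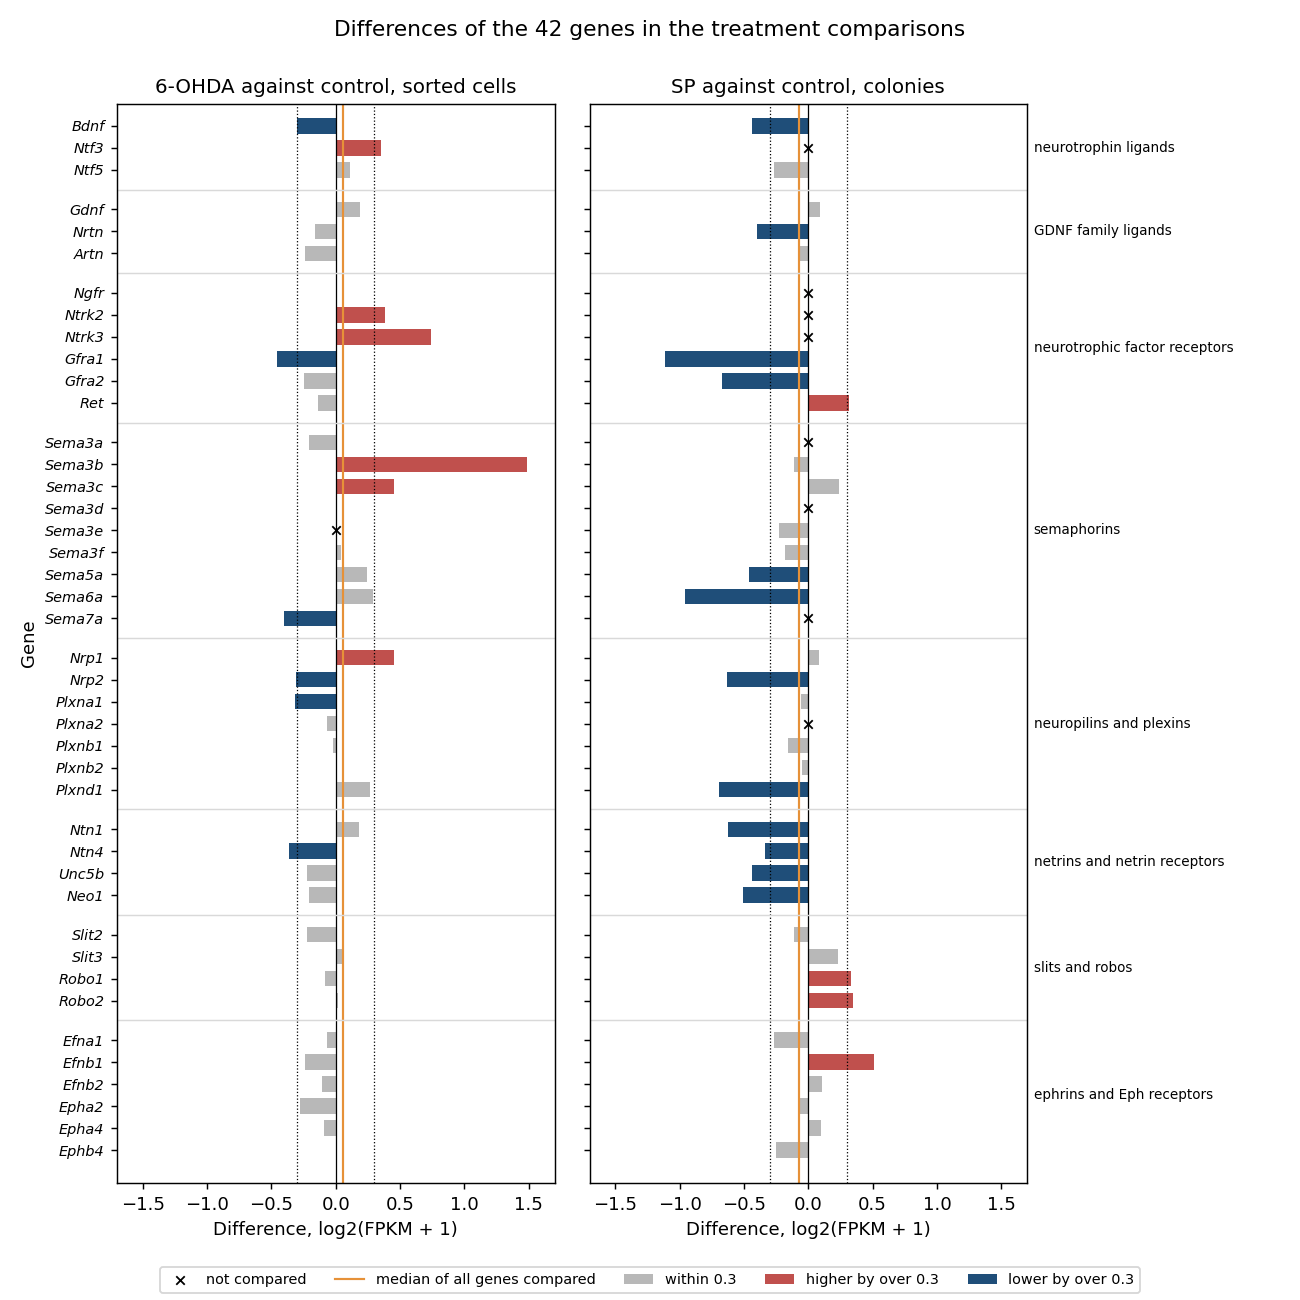
Difference of each gene on the log2(FPKM + 1) scale, 6-OHDA minus sorted control at left and SP minus control colonies at right, 1 library each, with dotted lines at 0.3 in size. Bars for the 4 netrins and netrin receptors all lie below -0.3 at right, and Sema3b reaches 1.49 at left.

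The treatment comparisons share no library. Both covered 33 members, of which Bdnf, Gfra1, Nrp2 and Ntn4 fell in each (12.1%), against 1.83% of the 10799 genes that both covered. With a pseudocount of 5 Gfra1 alone of them fell in each. These 4 are 4 of the 5 members that fell with 6-OHDA and 4 of the 12 that fell with SP among the 33. No member rose in both as deposited, where 2.83% of all genes did. None rose in one and fell in the other as deposited. Of all genes, 2.59% rose with 6-OHDA and fell with SP, and 1.08% did the reverse. After scaling by the median ratio Sema3c rose in both, by 0.39 with 6-OHDA and 0.31 with SP. Efnb1 then fell with 6-OHDA, barely, at -0.30 and rose with SP at 0.58. With a pseudocount of 0.1 Sema6a rose with 6-OHDA at 0.32 and fell with SP at -1.07. Within the threshold in both were 13 members (39.4%), against 56.5% of all genes. As deposited Sema3b, Sema3c and Nrp1 rose with 6-OHDA alone, and Plxna1 fell with 6-OHDA alone. With SP alone Ret, Robo1, Robo2 and Efnb1 rose, and Nrtn, Gfra2, Sema5a, Sema6a, Plxnd1, Ntn1, Unc5b and Neo1 fell, also as deposited. Gfra2 fell with 6-OHDA too, barely, at -0.30 after scaling by the median ratio and after quantile normalization. Whether the treatments differed for these members was not tested.

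The control colonies were also set against the sorted control, which asked what growth in culture goes with, and which shares a library with each treatment comparison. Sema7a, a membrane-anchored semaphorin, was listed at 38.9 FPKM in sorted cells and 0.74 in colonies, a log2 difference of -4.52. Ngfr, at 6.95 FPKM in sorted cells, was listed at 0. Ntn1, which encodes netrin 1, stood at 3.44 FPKM in sorted cells and 21.2 in colonies, a log2 difference of 2.32. Of 40 members compared, 15 rose (37.5%), against 55.7% of all genes, and 18 fell (45.0%), against 26.6%. By over 1 on the log2 scale, 5 members rose (12.5%), against 30.7% of all genes, and 12 fell (30%), against 13.2%. Of those that fell, Ngfr, Ntrk3, Sema3a, Sema3d, Sema7a and Plxna2 entered the comparison through the sorted library alone, being under 1 FPKM in the colonies.

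The median log2 difference of all genes in this comparison was 0.45, against -0.10 for the members, although 26.6% of all genes fell. The members' median was 0.17 with a mean FPKM filter of 5, -0.51 after scaling by the median ratio and -0.44 after quantile normalization. Scaling by the median ratio moved the median of all genes to 0.00, rescaling to the same sum moved it to 0.29 and quantile normalization to 0.13. Higher values made up 67.7% of all genes past the threshold as deposited, 50.2% after scaling by the median ratio and 55.1% after quantile normalization. The member counts were then 10 higher and 23 lower, and 11 higher and 22 lower. Rises of Ntf5, Nrtn, Artn, Plxnb1, Ntn1, Ntn4, Neo1, Robo2 and Ephb4 and 16 of the 18 falls held under every alternative on the pseudocount, the filter and the scaling that gave a value. With a mean FPKM filter of 5, Robo2 among the rises and Ngfr, Ntrk3, Sema3a, Sema3d, Nrp1 and Plxna2 among the falls had none. The falls of Ntrk2 and Unc5b ended with a pseudocount of 5. Unc5b at -0.308 and Sema3b at 0.343 were just past the threshold on the log2 scale, and Sema3f at 0.246 and Gfra1 at 0.245 just within it. Ntf3 and Sema3e had a mean under 1 FPKM and were not compared.

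Endothelial markers fell in 9 of 9 cases in the colonies, with a median log2 difference of -4.35. Of the others compared, 5 of 7 fibroblast, 4 of 5 pericyte, 3 of 3 leukocyte, 3 of 4 Schwann cell and 1 of 1 adipocyte markers fell, and 1 fibroblast, 1 pericyte and 1 Schwann cell marker rose. Of 2 neuron markers 1 rose and 1 fell, and the 1 salivary gland marker was within the threshold. Of 11 basal markers 1 rose and 7 fell, and of 10 luminal ones 8 rose and 0 fell. The part of these shifts in the differences of the members was not tested.

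**Figure D3:**
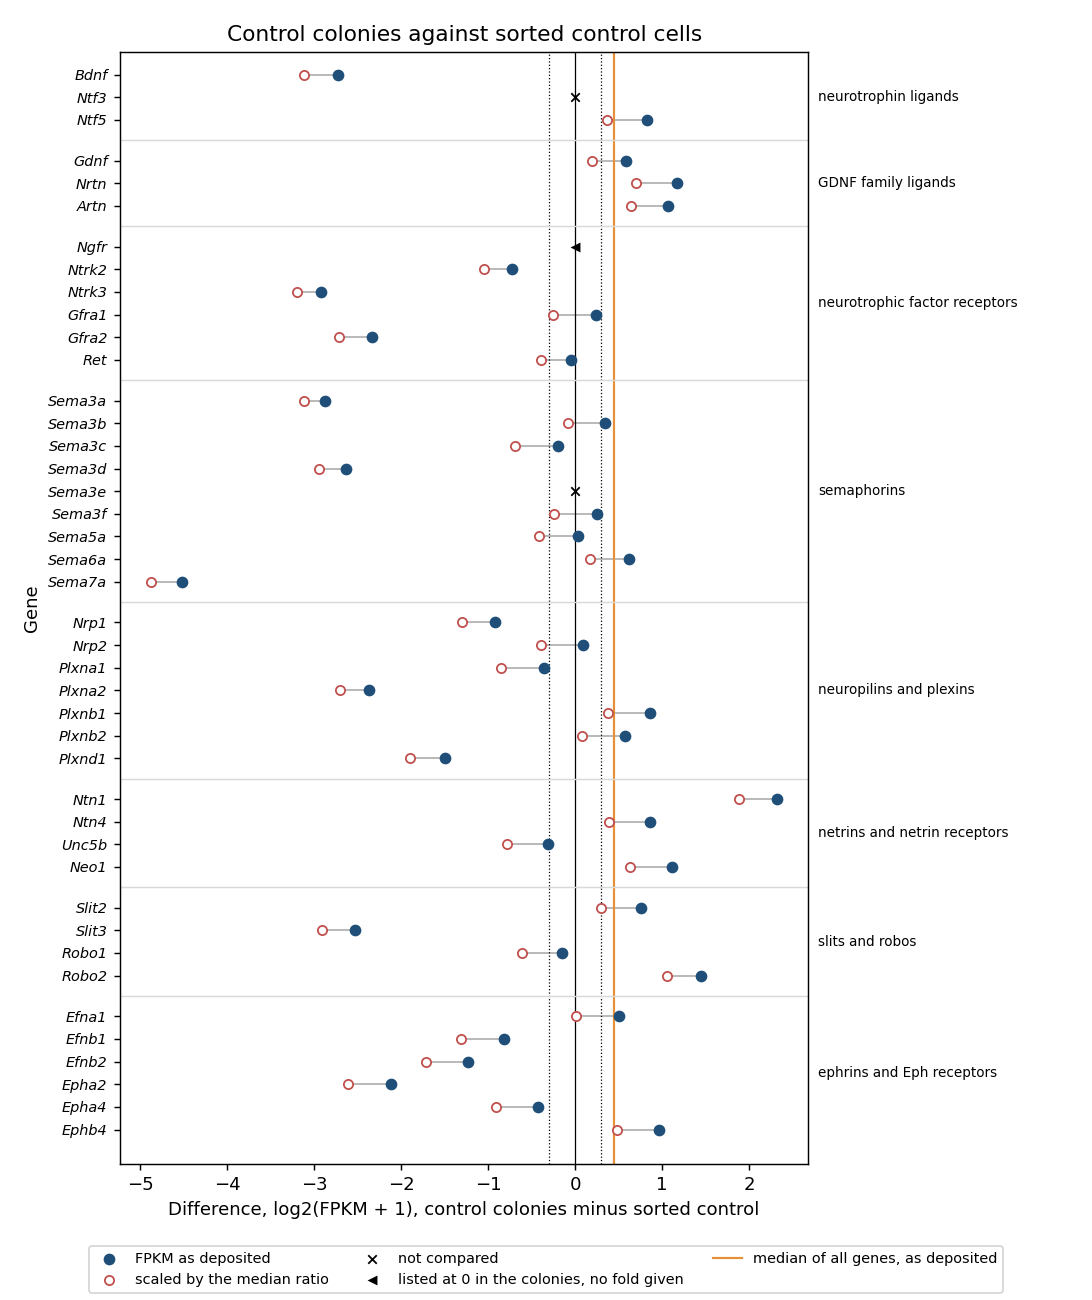
Difference of each gene on the log2(FPKM + 1) scale, control colonies minus sorted control, 1 library each, as deposited and after scaling by the median ratio. Scaling shifts every point to the left, and Sema3b changes from 0.34 to -0.08.

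Levels of the single members follow by role, always in the order sorted control, sorted 6-OHDA, control colonies and SP colonies. Of the neurotrophins, Bdnf, the brain-derived ligand of the receptor TrkB, was listed at 18.4, 14.7, 1.95 and 1.17 FPKM. It was thus high in sorted cells and low in colonies, with log2 differences of -0.30 for 6-OHDA, -0.44 for SP and -2.72 for culture. Ntf3, which encodes neurotrophin-3, the ligand of TrkC, had 1.13, 1.72, 0 and 0.55 FPKM. Its log2 difference with 6-OHDA was 0.35, on about 21 to 24 fragments in the control and 31 to 35 in the 6-OHDA library. Ntf5, which encodes neurotrophin-4, another ligand of TrkB, was at 7.49, 8.18, 14.1 and 11.5 FPKM. It was higher in colonies than in sorted cells, by 0.83 on the log2 scale, and within the threshold for 6-OHDA at 0.11 and for SP at -0.27.

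GDNF family ligands are secreted proteins that support neurons. Gdnf, the ligand bound by Gfra1, was listed at 2.90, 3.46, 4.88 and 5.24 FPKM. Nrtn (neurturin), bound by Gfra2, had 9.59, 8.49, 22.9 and 17.1 FPKM, and Artn (artemin), bound by Gfra3, had 3.73, 3.01, 8.91 and 8.46 FPKM. All 3 rose in culture as deposited, as did 55.7% of all genes, with log2 differences of 0.59, 1.17 and 1.07, while that of Gdnf was 0.19 after scaling by the median ratio, within the threshold. None was past the threshold with 6-OHDA as deposited, where the log2 differences were 0.19, -0.16 and -0.24, although that of Artn was -0.34 after quantile normalization. With SP Nrtn fell, by a log2 difference of -0.40, and Gdnf and Artn were at 0.09 and -0.07.

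Of their receptors, 1 of 3 fell in culture. Gfra1 (NCBI Gene 14585, chr19:58235581-58455946 in RefSeq GRCm38.p6) was listed at 34.5, 24.8, 41.0 and 18.5 FPKM. It was the most abundant of the 6 neurotrophic factor receptors among the members in all 4 libraries and had the higher level in the control of each treatment, with log2 differences of -0.46 for 6-OHDA and -1.11 for SP. Among all genes compared, 431 had a more negative log2 difference with 6-OHDA and 117 with SP. Between the controls its log2 difference of 0.24 was within the threshold, and it was -0.25 after scaling by the median ratio. Gfra2, the neurturin co-receptor, had 11.7, 9.70, 1.53 and 0.59 FPKM. It fell in culture (log2 difference -2.33) and with SP (-0.67), and its 6-OHDA difference was -0.25. The last was -0.30, barely past the threshold, after scaling by the median ratio and after quantile normalization. Ret, the kinase through which both co-receptors signal, was low throughout at 1.98, 1.71, 1.87 and 2.58 FPKM. Its log2 differences were -0.14 for 6-OHDA, 0.32 for SP and -0.05 for culture, the last -0.39 after scaling by the median ratio.

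The neurotrophin receptors were confined to the sorted libraries at more than 2 FPKM. Ngfr, the receptor shared by all neurotrophins, was listed at 6.95, 7.03, 0 and 0 FPKM. The log2 difference with 6-OHDA was 0.01, so its level was alike in the sorted libraries, and it was listed at 0 in both colony libraries. The part of Schwann cells, whose markers also had a lower sum in the colonies, in the level of Ngfr was not tested. Ntrk3, which encodes TrkC, had 8.59, 15.1, 0.27 and 0.87 FPKM. It rose with 6-OHDA by a log2 difference of 0.74, and 226 of the genes compared had a larger one. In the control colonies it was lower than in sorted cells (log2 difference -2.92). Ntrk2, which encodes TrkB, had 2.55, 3.62, 1.14 and 0.73 FPKM, with log2 differences of 0.38 for 6-OHDA and -0.73 for culture.

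Of the 9 semaphorins, 8 were compared in culture. As deposited 2 of them rose (25.0%, against 55.7% of all genes) and 3 fell (37.5%, against 26.6%). Sema3a, a secreted repellent of sympathetic and sensory axons that acts through Nrp1, was listed at 6.82, 5.75, 0.07 and 0.03 FPKM. Sema3d, another secreted member, had 8.24, 8.25, 0.49 and 0.20 FPKM, and Sema7a had 38.9, 29.1, 0.74 and 0.20. All 3 were present in sorted cells and near 0 in colonies, with log2 differences of -2.87, -2.63 and -4.52 for culture. They entered the culture comparison through the sorted library alone, being under 1 FPKM in the colonies. With 6-OHDA Sema7a fell, by a log2 difference of -0.40, and Sema3a and Sema3d were at -0.21 and 0.00.

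Sema3b (NCBI Gene 20347, chr9:107597674-107609241 in RefSeq GRCm38.p6) was listed at 4.56, 14.7, 6.05 and 5.53 FPKM, so the 6-OHDA library was the only one above 7 FPKM. Its log2 difference of 1.49 with 6-OHDA was exceeded by 53 of the 11749 genes compared, and ran from 1.04 to 1.66 over the alternatives. In culture its log2 difference of 0.34 turned to -0.08 after scaling by the median ratio and to -0.20 after quantile normalization, and with SP it was -0.11. Sema3c, a secreted ligand of neuropilins, was the most abundant semaphorin outside the sorted control, with 31.8, 43.9, 27.6 and 32.8 FPKM. It rose with 6-OHDA by a log2 difference of 0.45, and was at 0.24 for SP and -0.20 for culture. After scaling by the median ratio the SP value was 0.31, past the threshold, and the culture value -0.69. Sema3f, which acts through Nrp2, was even across the libraries at 16.7, 17.2, 20.0 and 17.6 FPKM, with log2 differences of 0.04, -0.18 and 0.25 for 6-OHDA, SP and culture. Sema3e, which binds Plxnd1 directly, was low throughout, at 0.53, 0.89, 1.34 and 0.99 FPKM.

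Of the transmembrane semaphorins, Sema6a was listed at 7.11, 8.89, 11.5 and 5.44 FPKM. Its SP library was the lowest and its control colony library the highest, with log2 differences of -0.96 for SP and 0.62 for culture, the latter 0.17 and within the threshold after scaling by the median ratio. Only 186 of the 11849 genes compared had a more negative log2 difference with SP. Sema5a had 7.29, 8.81, 7.51 and 5.19 FPKM, and fell with SP by a log2 difference of -0.46. For 6-OHDA and culture it was at 0.24 and 0.04, the latter -0.41 after scaling by the median ratio.

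The neuropilins, co-receptors that bind secreted semaphorins, went different ways. Nrp1 was listed at 5.01, 7.21, 2.18 and 2.35 FPKM, higher in sorted cells than in colonies. It rose with 6-OHDA (log2 difference 0.45), fell in culture (-0.92) and was at 0.08 for SP. Nrp2 had 18.7, 14.9, 20.0 and 12.6 FPKM, and was lower in the treated library of each treatment comparison, with log2 differences of -0.31 for 6-OHDA and -0.63 for SP. In culture it was at 0.09, and at -0.39 after scaling by the median ratio.

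Plexins are the signalling receptors of semaphorins. Plxnd1, the receptor of Sema3e, was listed at 9.10, 11.2, 2.60 and 1.23 FPKM, high in sorted cells and falling in culture (log2 difference -1.49) and again with SP (-0.69). Plxna2, a receptor of Sema6a, had 7.86, 7.46, 0.71 and 0.86 FPKM, with a log2 difference of -2.37 for culture and -0.07 for 6-OHDA. Both were thus higher in the sorted libraries than in the colonies, where Plxna2 was under 1 FPKM and Plxnd1 was not. Plxna1, which pairs with neuropilins, had 25.1, 19.9, 19.3 and 18.5 FPKM, highest in the sorted control, with log2 differences of -0.32 for 6-OHDA, -0.06 for SP and -0.36 for culture. Plxnb1 and Plxnb2, receptors of class 4 semaphorins, had 13.9, 13.7, 26.04 and 23.2 FPKM and 30.5, 30.5, 46.0 and 44.4 FPKM. Both rose in culture as deposited, with log2 differences of 0.86 and 0.58, the latter 0.08 after scaling by the median ratio, and lay between -0.16 and 0.00 in the treatment comparisons.

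Netrins and their receptors were the group in which every member fell with SP as deposited, against 19.8% of all genes, with a median log2 difference of -0.48, Ntn4 being within the threshold after scaling by the median ratio. Ntn1 (NCBI Gene 18208, chr11:68209364-68386826 in RefSeq GRCm38.p6) was listed at 3.44, 4.04, 21.2 and 13.4 FPKM. It was higher in both colony libraries than in both sorted ones, and fell with SP by a log2 difference of -0.62, while 6-OHDA gave 0.18. Ntn4, a netrin of basement membranes, had 10.1, 7.65, 19.2 and 14.9 FPKM, with log2 differences of -0.36 for 6-OHDA, -0.34 for SP and 0.86 for culture. Neo1 (neogenin), a receptor of netrin 1, had 21.2, 18.2, 47.3 and 32.9 FPKM. It was also a gene with more RNA in colonies, by a log2 difference of 1.12, and fell with SP by -0.51, with -0.21 for 6-OHDA. Unc5b, a receptor that mediates repulsion by netrin 1, had 15.0, 12.7, 11.9 and 8.49 FPKM, lowest in the SP colonies. Its log2 differences were -0.22 for 6-OHDA, -0.44 for SP and -0.31 for culture. The receptor Dcc was not analysed here.

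Slits are secreted repellents and robos their receptors. Slit2 was listed at 7.55, 6.32, 13.5 and 12.5 FPKM, and Slit3 at 12.7, 13.2, 1.37 and 1.78. The ligands thus stood in opposite order in sorted cells and colonies, with log2 differences of 0.76 and -2.53 for culture, although that of Slit2 was not past the threshold after quantile normalization. As deposited neither was past the threshold for 6-OHDA, at -0.22 and 0.05, or for SP, at -0.11 and 0.23. Quantile normalization took Slit2 to -0.31 for 6-OHDA and Slit3 to 0.31 for SP. Robo1 had 9.81, 9.21, 8.75 and 11.2 FPKM and Robo2 had 1.79, 1.83, 6.61 and 8.73. Both were highest in the SP colonies, with log2 differences of 0.33 and 0.35 against the control colonies, and were at -0.08 and 0.02 for 6-OHDA. In culture Robo2 rose by a log2 difference of 1.45 and Robo1 was at -0.15, or -0.61 after scaling by the median ratio.

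Ephrins and Eph receptors, membrane proteins that signal between touching cells, were the most abundant group. Epha2 was listed at 167, 137, 37.9 and 35.9 FPKM, rank 463 of 17630 genes in the sorted control and 2422 in the control colonies. It was high in sorted cells and lower in colonies, with log2 differences of -0.28 for 6-OHDA, -0.07 for SP and -2.11 for culture. Epha4, which binds ephrins of both classes, had 22.1, 20.7, 16.2 and 17.4 FPKM, and log2 differences of -0.09, 0.10 and -0.43 in the same order. Ephb4, the receptor of Efnb2, had 23.5, 23.5, 47.0 and 39.3 FPKM, and differed the other way in culture, by a log2 difference of 0.97, with 0.00 for 6-OHDA and -0.25 for SP.

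Among the ephrins, Efna1, a membrane-anchored ligand of Epha2, had 48.8, 46.4, 69.6 and 57.7 FPKM, with log2 differences of -0.07 for 6-OHDA, -0.27 for SP and 0.51 for culture, the last 0.01 after scaling by the median ratio. Efnb1 had 43.7, 36.8, 24.3 and 35.0 FPKM. Its control colony library was the lowest, with log2 differences of -0.24 for 6-OHDA, 0.51 for SP and -0.82 for culture. Efnb2 had 32.1, 29.7, 13.1 and 14.2 FPKM, higher in sorted cells, with a log2 difference of -1.23 for culture, -0.11 for 6-OHDA and 0.11 for SP. In culture 2 of these 6 ephrins and Eph receptors rose, against 55.7% of all genes, and 4 fell, against 26.6%. With 6-OHDA all 6 were within the threshold as deposited, although Epha2 passed it at -0.35 and Efnb1, barely, at -0.30 after scaling by the median ratio.

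Other members of these families were looked at as a written list of 54 genes, 53 of them analysed here. With 6-OHDA 31 were compared, of which 4 rose (12.9%, against 15.8% of all genes) and 5 fell (16.1%, against 8.35%), with a median log2 difference of 0.01. Sema3g, a secreted semaphorin, rose from 4.77 FPKM in the sorted control to 9.60 in the 6-OHDA library (log2 difference 0.88). With SP 25 were compared, of which 2 rose (8%, against 11.7% of all genes) and 14 fell (56%, against 19.8%), with a median log2 difference of -0.41. Epha3, at 3.58 and 0.85 FPKM in control and SP colonies (log2 difference -1.31), Ntng1, a membrane-bound netrin, at 10.5 and 4.86 (-0.97), and Sema4f, at 0.83 and 2.16 (0.79), differed most.

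In culture 29 of these genes were compared, of which 14 rose (48.3%, against 55.7% of all genes) and 10 fell (34.5%, against 26.6%), with a median log2 difference of 0.16. Robo4, a receptor known from endothelium, was at 9.40 FPKM in the sorted control and at 0 in the control colonies. Sema3g was at 4.77 and 0.07 FPKM in these libraries (log2 difference -2.43). The other large differences were rises, of Efna4 from 2.20 to 28.8 FPKM (3.22), Epha1 from 4.33 to 28.7 (2.48) and Rgma, a ligand of neogenin, from 1.96 to 12.7 (2.21). Summed over the 53 genes, FPKM came to 264 in the sorted control, 284 in the 6-OHDA library, 342 in colonies without SP and 295 in colonies with SP.

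The proteins that carry guidance signals to the cytoskeleton, a written list of 48 genes, summed to 1930, 2000, 2150 and 2330 FPKM in the 4 libraries, with the actin-severing Cfl1 the most abundant in each. With 6-OHDA 45 were compared, of which 6 rose (13.3%, against 15.8% of all genes) and 1 fell (2.22%, against 8.35%), with a median log2 difference of 0.04. Vav3, a guanine nucleotide exchange factor, at 15.0 and 22.4 FPKM (log2 difference 0.55), Farp2, at 3.10 and 1.93 (-0.48), and Dpysl2, at 2.61 and 4.03 (0.48), led them. With SP 46 were compared, of which 8 rose (17.4%, against 11.7% of all genes) and 10 fell (21.7%, against 19.8%), with a median log2 difference of -0.04. Srgap3, a partner of Robo receptors, was at 11.5 and 5.76 FPKM (-0.89), Ablim1 at 3.61 and 6.83 (0.76) and the adaptor Gab1 at 39.9 and 24.1 (-0.70). In culture 46 were compared, of which 22 rose (47.8%, against 55.7% of all genes) and 11 fell (23.9%, against 26.6%), with a median log2 difference of 0.17. Rnd1, a small GTPase that binds plexins, fell from 48.0 to 1.61 FPKM (log2 difference -4.23), Fes from 7.61 to 0.97 (-2.13) and Abl2 from 36.0 to 9.84 (-1.77), while Dpysl5 rose from 0.34 to 7.31 (2.63) and Dok1 from 6.34 to 32.0 (2.17).

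Promoter sequence was examined because the β2 receptor raises cyclic AMP, and factors of the CREB family are known to bind the palindrome TGACGTCA or its shorter form TGACG. Windows of 250 bases before the annotated start were given in RefSeq GRCm38.p6 for 33 members, with 45 windows. The letters TGACG were searched on both strands, so that each TGACGTCA also counts as a match of the shorter motif. They occurred in 7 member windows (15.6%), against 17.8% of all 32851 windows of that length, a share near the background. The members were Bdnf, Efnb1, Efnb2, Epha2, Epha4, Gdnf and Sema3d, and the palindrome occurred in Epha2 alone, 2.22% of member windows against 1.55% of all. The sequences below are those of the member with the palindrome, of the member whose rise with SP held under every alternative, and of the member with the largest fall with SP. Each is given from 5′ to 3′ on the strand of its gene, with the motif in capitals. Epha2 is at chr4:141300971-141301220 on the plus strand, Efnb1 at chrX:99135811-99136060 on the plus strand and Gfra1 at chr19:58455399-58455648 on the minus strand. The Gfra1 window lies within the span of the gene given above and not before its outermost start. A match is a description of the letters and not of a bound site, and no capitals in Gfra1 says only that the letters are not in this window.
Epha2: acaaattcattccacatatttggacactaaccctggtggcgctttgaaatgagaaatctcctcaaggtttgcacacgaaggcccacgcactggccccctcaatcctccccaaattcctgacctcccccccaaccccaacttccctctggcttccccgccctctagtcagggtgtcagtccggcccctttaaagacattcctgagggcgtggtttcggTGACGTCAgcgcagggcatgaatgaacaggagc
Efnb1: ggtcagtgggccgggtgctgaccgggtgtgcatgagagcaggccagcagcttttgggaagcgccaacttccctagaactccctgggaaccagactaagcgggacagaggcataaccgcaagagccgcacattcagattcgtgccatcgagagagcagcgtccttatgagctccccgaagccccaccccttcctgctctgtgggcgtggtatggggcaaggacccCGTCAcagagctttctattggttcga
Gfra1: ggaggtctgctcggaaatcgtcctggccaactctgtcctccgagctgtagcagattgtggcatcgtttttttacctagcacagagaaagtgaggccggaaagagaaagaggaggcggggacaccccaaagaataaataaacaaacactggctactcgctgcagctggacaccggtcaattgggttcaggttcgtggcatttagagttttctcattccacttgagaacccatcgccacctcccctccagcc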

How the data were processed

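RNA-seq libraries of mouse mammary basal cells, 1 per condition, were used as the authors deposited them, as FPKM with 2 decimals for 17630 genes listed by NCBI Gene ID. The submitters' processing notes name mm10, Bowtie2, RSEM 1.3.1 and DESeq2 1.4.5, and the annotation was not given in the sources used here. Gene IDs were matched to symbols of RefSeq GRCm38.p6, which left 118 genes without a symbol. The members were a written list of gene symbols, and they and the further gene and marker lists were chosen with earlier results of these data known.

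Differences were taken on log2(FPKM + 1) between 2 libraries, among genes with a mean of at least 1 FPKM over both. The threshold of 0.3 is the size threshold in the study's figure legend on sorted cells, where it stands with an adjusted P-value that was not used here, and was applied to all 3 comparisons, with 1 as a larger alternative. Alternatives on the pseudocount (0.1 and 5), the filter (none and a mean of at least 5) and the scaling (same sum, same sum without salivary gland genes, median ratio, quantile normalization) were written down in advance, also with earlier results of these data known. No test was made, since there was no replicate. Sorted 6-OHDA was compared with sorted control, SP colonies with control colonies, and control colonies with sorted control, the last sharing a library with each of the others.

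Each member above 1 FPKM in any library was to be named with its 4 values. Of each further list, genes with the largest differences were to be named, at least 3 and at most 5 where more passed a log2 difference of 1, and of each marker list the most abundant gene and those at 0. Ptprc, Myh11, Col1a1, Col3a1 and Pecam1 in colonies were named after their values were seen. Fragments per FPKM were estimated from the spacing of low values of single-transcript genes, with assumed fragment lengths of 150 to 300 bases, which gave 16.5 to 17.9 per kilobase at 250. The scores were 0.31 to 0.52, where 1 is a perfect fit, so the depth is rough. In GENCODE vM21 1 member, Ephb4, has exons that overlap another gene of the files (Zan, opposite strand, 33 of 4640 bases), and the strandedness of the libraries was not given. Code was tested on simulated data and run with Python 3.11.15, numpy 2.4.6, pandas 2.3.3 and matplotlib 3.10.9.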

Additional observations from a re-analysis of the deposited data

How the results depend on the processing

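With 1 library per condition no library could be left out. Alternatives on the pseudocount, the filter and the scaling applied to the differences of the members, and a threshold of 1 to their counts, while the further gene lists and marker lists were not recomputed. Member counts per comparison not named here were within 1.5 times those in the report. With a pseudocount of 5 the members higher and lower were 3 and 2 for 6-OHDA and 1 and 7 for SP. With a threshold of 1 they were 1 and 0 for 6-OHDA and 0 and 1 for SP, and 5 members were higher in culture. A mean FPKM of at least 5 left 11 members lower in culture, where fewer genes were compared, and quantile normalization gave 10 members lower with 6-OHDA. The log2 difference of Sema3b in culture turned to -0.08 with median-ratio scaling and to -0.20 with quantile normalization, and the cause was not tested. Of 115 single differences with a value, those past the threshold in the same direction as reported, or within it as reported with either sign, were 111 with a pseudocount of 0.1, 97 with a pseudocount of 5, 115 with no filter, 111 with rescaling to the same sum, 109 with that rescaling after leaving out salivary gland genes, 100 with median-ratio scaling and 99 with quantile normalization. With a mean FPKM of at least 5 all 91 that had a value did so. Values near 1 FPKM on short transcripts rest on few fragments, and with values of 2 decimals the differences of such genes are coarse.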

Other observations

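Some genes outside the members stood apart between the colony libraries. Tubb3 was at 0.86 FPKM in control colonies and 26.7 in SP colonies, and Stmn2 at 8.36 and 24.0. Erg was at 10.3 and 1.41 FPKM in these libraries, while Cdh5 was at 0.12 in both. Fabp4 was at 34.4 and 1.05 FPKM. These values have no explanation here, and none was tested.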
